A study of Homo sapiens with 12 samples.

Results

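The 9 genes described here mark or maintain the germinal centre B-cell state: the repressors BCL6 and BACH2, the germinal centre markers MME, LMO2 and MYBL1, the lineage factors PAX5 and EBF1, and the late B-cell regulators SPIB and POU2AF1. Every probe set that the array annotation assigns to one of these symbols alone was taken, which gave 22 probe sets of the 54613 tested and 9 genes of the 19775 with such a probe set. Each gene was read first at its brightest probe set, the one with the highest mean over the arrays. RNA came from OCI-Ly7, a human diffuse large B-cell lymphoma line of germinal centre type, labelled as a B-NHL cell line. Cells were exposed for 24 h to vehicle, to 1 μM ibrutinib, to 10 μM ibrutinib or to 1 μM PLS-123, with 3 Affymetrix arrays per group and 12 in all. Ibrutinib is a covalent inhibitor of Bruton's tyrosine kinase (BTK), the kinase that carries the B-cell receptor signal, and PLS-123 is the covalent BTK inhibitor that the study introduces. All groups are the same line, so they model one lymphoma. The labels do not say whether the 3 arrays of a group came from separate cultures, so p-values measure only the spread between these arrays, which may be technical.

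In the germinal centre, B cells divide, mutate their antibody genes and are selected, and BCL6 holds this state by repressing the genes of activation, cell-cycle arrest and plasma cell differentiation. PAX5 and EBF1 keep the B-cell programme switched on. SPIB is an ETS factor that binds PU-box sites, often beside IRF factors, and POU2AF1 is the B-cell coactivator of octamer factors. Loss of BCL6 and PAX5 together with a rise of PRDM1, IRF4 and XBP1 is the textbook course of a B cell leaving the germinal centre for the plasma cell fate.

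Intensities are given on the log2 scale, where a difference of 1 is a doubling of signal. The term called means an adjusted p under 0.05 in limma (moderated test, two-sided, Benjamini-Hochberg over all 54613 probe sets of the comparison), and a probe set is dim where its mean over the arrays is under 3.87, the middle value of the whole array on that scale. All 4 measured B-cell markers (MS4A1, CD79A, CD79B and CD22) were brighter than that, at means between 9.06 and 12.10, and so were 5 of 6 germinal centre markers, with LMO2 the exception. The lowest of those 5 was SERPINA9 at 4.45. CD14, LYZ, S100A8 and S100A9 of the 6 measured myeloid markers were dim. So were CD2, CD3D, CD3G, CD8A, KLRD1 and NKG7 of the 8 T and NK cell markers. COL1A2, COL3A1, DCN, EPCAM and KRT18 of the 8 stromal and epithelial markers were dim as well. The other measured markers of these 3 lists were not dim: CSF1R (4.33), ITGAM (3.90), CD3E (4.17), CD5 (4.93), KRT8 (5.47), COL1A1 (6.28) and PECAM1 (8.34). The log2 difference between the 3′ and 5′ ACTB control probe sets, a measure of RNA quality, was 2.64 ± 0.04 on vehicle, 2.67 ± 0.18 after 1 μM ibrutinib, 2.74 ± 0.08 after 10 μM ibrutinib and 2.93 ± 0.20 after PLS-123 (SD, n = 3 arrays). The vehicle arrays ran from 2.59 to 2.68, below those of 10 μM ibrutinib (2.69 to 2.83) and PLS-123 (2.80 to 3.17). The ACTB measure entered the results only as a covariate of the model. Where it does not overlap between groups, the covariate cannot separate RNA quality from treatment, so a call lost under it decides neither. The same difference between GAPDH control probe sets ran from 0.268 to 0.346 on vehicle, 0.241 to 0.306 after 1 μM ibrutinib, 0.384 to 0.400 after 10 μM ibrutinib and 0.438 to 0.466 after PLS-123, so the last 2 groups lay above vehicle with no overlap. The part of the GAPDH measure in the results was not tested.

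PLS-123 at 1 μM changed 7 of the 9 genes against vehicle. BCL6, MYBL1, PAX5, EBF1 and SPIB fell, MME and POU2AF1 rose, and BACH2 and LMO2 did not pass the test. Over all 19775 genes, 12.8% fell and 7.54% rose in this comparison (20.4% called in either direction). Such shares, here and below, include dim genes, which were called less often, whereas LMO2 alone of the 9 is dim at its brightest probe set. Among the 27307 probe sets that were not dim, tested alone, 6539 fell and 3686 rose after PLS-123. After 10 μM ibrutinib 3191 of them fell and 3345 rose. Ibrutinib at 10 μM changed 6 of the 9: BCL6, MYBL1, EBF1 and SPIB fell, and MME and POU2AF1 rose, where 5.82% of all genes fell and 6.71% rose (12.5% in either direction). With 1 μM ibrutinib none of the 9 was called, nor was any other gene (0.0%), and 1 of the 9, MME, had an unadjusted p under 0.05. By the methods' t-test, run on the same log2 values, the count there was also 0. The median difference of the 9 genes from vehicle was -0.38 after PLS-123 and -0.15 after 10 μM ibrutinib, beside -0.04 and -0.02 over all genes. These comparisons use the same 3 vehicle arrays. The 9 genes and the lists below were chosen with earlier results of these data known. Their counts beside the shares of all genes are therefore a description and not a test of the set. In RNA of a whole culture, fewer cells of a type and less RNA per cell cannot be told apart.

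**Figure D1:**
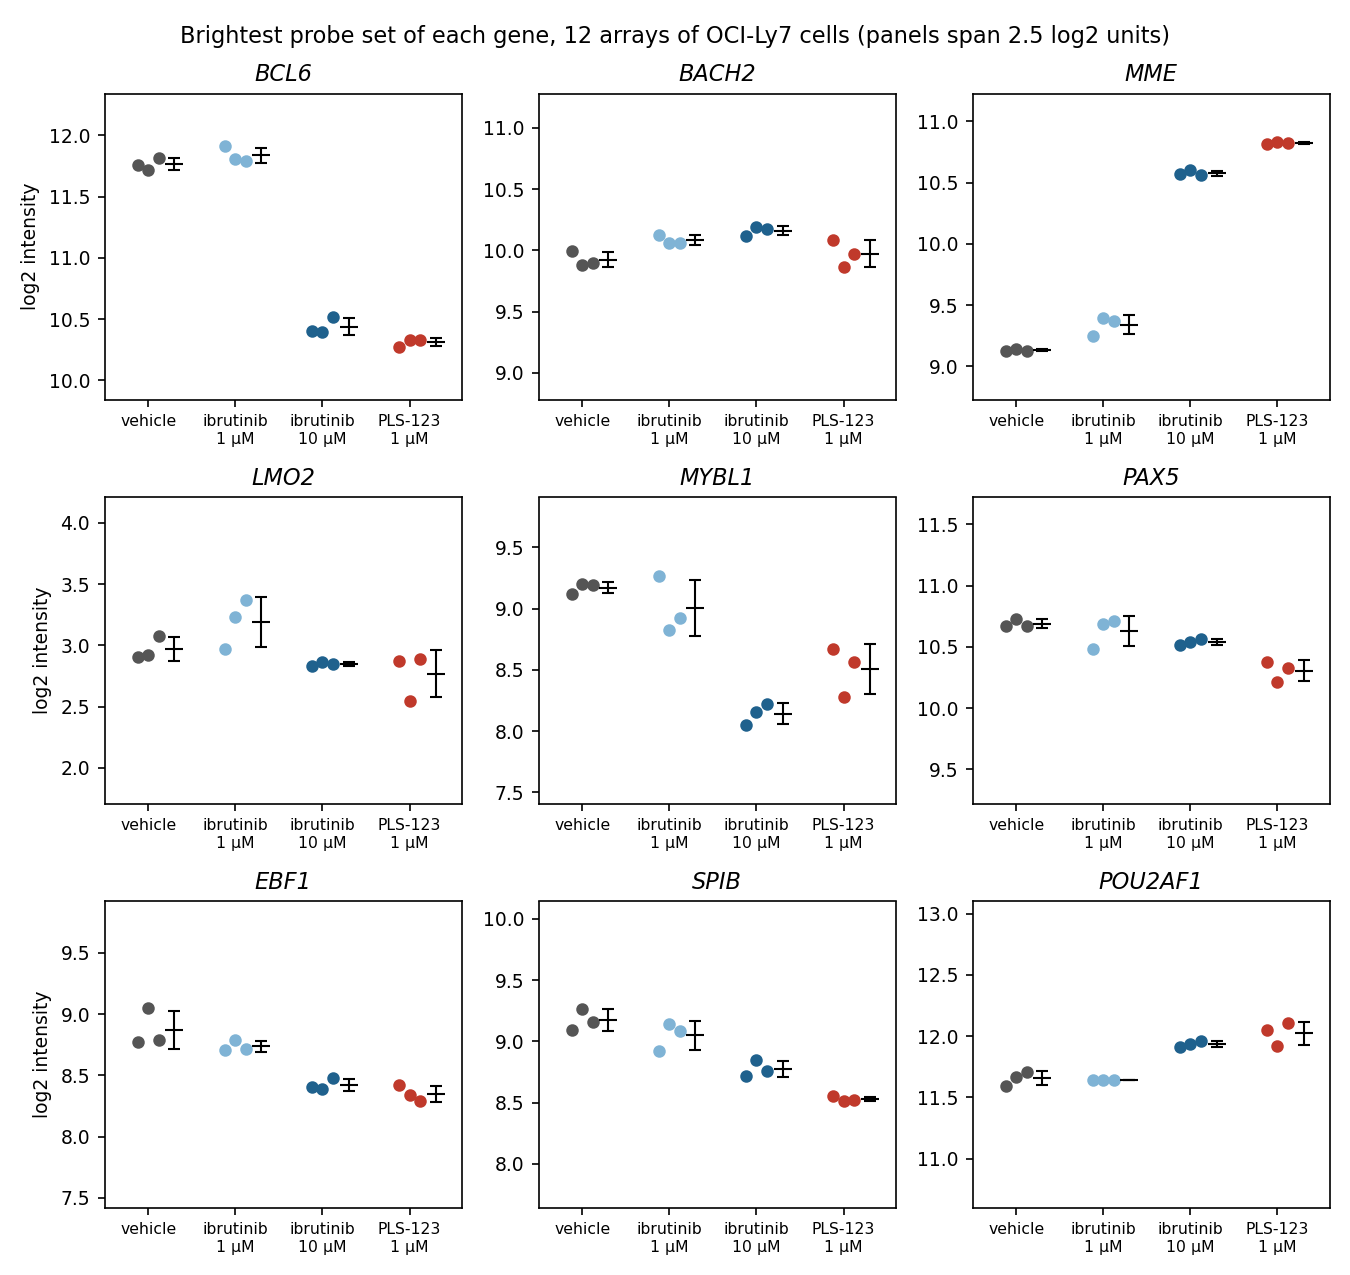
Log2 intensity (y axis, each panel spanning 2.5 units) of the brightest probe set of each gene on each of the 12 arrays by treatment (x axis); points are arrays, and the bars beside them are the mean and SD of 3 arrays. BCL6 after 10 μM ibrutinib and PLS-123 sits between 10.27 and 10.52, below every vehicle array (11.72 to 11.82), MME lies above every vehicle array in the same groups, and BACH2 stays between 9.87 and 10.19 throughout.

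BCL6 (probe set 203140_at), the transcriptional repressor that defines the germinal centre reaction, read 11.76, 11.72 and 11.82 on the 3 vehicle arrays and 11.91, 11.81 and 11.79 after 1 μM ibrutinib. It read 10.40, 10.39 and 10.52 after 10 μM ibrutinib and 10.27, 10.33 and 10.33 after PLS-123. The arrays thus form a high pair of groups and a low pair with no overlap between them. Against vehicle BCL6 fell by 1.45 ± 0.08 after PLS-123 (SE, adjusted p = 2.19e-08), to 36.5% of the vehicle signal, and by 1.33 ± 0.08 after 10 μM ibrutinib (adjusted p = 5.59e-08), to 39.8%. With 1 μM ibrutinib the difference was 0.07 (95% confidence interval -0.09 to 0.24, adjusted p = 0.944). Of all 19775 genes, 59 lay at least as far below vehicle as BCL6 after PLS-123 (0.298%) and 54 did after 10 μM ibrutinib (0.273%). Both other BCL6 probe sets fell in both groups. For 215990_s_at the differences were -2.07 after PLS-123 and -2.06 after 10 μM ibrutinib, and for 228758_at they were -1.33 and -1.30.

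BCL6 protein is known to repress its own gene, so its promoters are shown beside those of MME, the member that rose most, and SPIB, a member that fell and is itself a DNA-binding factor. The sequences are RefSeq promoter windows on GRCh38.p14, 250 bases before to 50 after a start site, 5′ to 3′ on the gene's strand, and 6 of the 9 genes had one, with 10 windows in all. Capitals mark the match to the BCL6 motif core TTCCTAGAA (reverse complement TTCTAGGAA).
BCL6, first start site, chr3:187745419-187745718, minus strand: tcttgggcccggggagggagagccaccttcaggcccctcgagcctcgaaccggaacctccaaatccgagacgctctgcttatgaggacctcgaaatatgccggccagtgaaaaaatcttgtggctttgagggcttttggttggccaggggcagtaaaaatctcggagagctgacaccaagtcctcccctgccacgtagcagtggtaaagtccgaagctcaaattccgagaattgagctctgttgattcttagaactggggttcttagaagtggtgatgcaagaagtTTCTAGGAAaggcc
BCL6, second start site, chr3:187736452-187736751, minus strand: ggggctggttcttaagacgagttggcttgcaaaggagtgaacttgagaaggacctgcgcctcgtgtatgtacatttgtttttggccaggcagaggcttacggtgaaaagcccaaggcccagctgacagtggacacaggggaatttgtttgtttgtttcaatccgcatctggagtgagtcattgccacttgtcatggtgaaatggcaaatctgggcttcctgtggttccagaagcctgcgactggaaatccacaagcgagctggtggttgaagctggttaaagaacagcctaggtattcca
MME, first start site, chr3:155079422-155079721, plus strand: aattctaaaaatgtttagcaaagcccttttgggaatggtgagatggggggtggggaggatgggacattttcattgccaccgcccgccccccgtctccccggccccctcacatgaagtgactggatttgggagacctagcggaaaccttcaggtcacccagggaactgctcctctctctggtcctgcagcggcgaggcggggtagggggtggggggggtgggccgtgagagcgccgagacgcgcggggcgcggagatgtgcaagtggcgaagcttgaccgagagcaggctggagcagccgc
SPIB, chr19:50418688-50418987, plus strand: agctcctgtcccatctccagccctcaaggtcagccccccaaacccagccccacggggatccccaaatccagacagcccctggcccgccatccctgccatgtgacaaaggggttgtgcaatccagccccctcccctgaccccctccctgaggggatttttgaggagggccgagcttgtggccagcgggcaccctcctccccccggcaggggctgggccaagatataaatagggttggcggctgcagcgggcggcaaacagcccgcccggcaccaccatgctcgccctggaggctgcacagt
The first BCL6 window held the reverse complement of the motif core at bases 287 to 295, which begins at base 37 when the start site is counted as base 1, at chr3:187745424-187745432. On both strands this motif was found in 131 of 35116 promoters (0.373%), and in none of the other 9 windows of BACH2, BCL6, EBF1, MME, PAX5 and SPIB. The octamer ATGCAAAT, bound by the partners of POU2AF1 and found in 1.77% of all promoters, and the PU.1 and Spi-B site GAGGAAGT, found in 2.59%, had no match in the 10 windows. A match is a string of letters and was not measured as binding.

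BACH2 (221234_s_at), a repressor that works beside BCL6 and delays plasma cell differentiation, was not called in any comparison. Its arrays read 10.00, 9.88 and 9.90 on vehicle, 10.13, 10.06 and 10.06 after 1 μM ibrutinib, 10.12, 10.19 and 10.17 after 10 μM ibrutinib, and 10.09, 9.87 and 9.97 after PLS-123. The PLS-123 arrays overlap those of vehicle, and the ibrutinib arrays of both doses lie above them. The difference from vehicle was 0.05 after PLS-123 (95% confidence interval -0.12 to 0.22, adjusted p = 0.749), an interval that does not reach the fall seen in BCL6. It was 0.24 after 10 μM ibrutinib (0.06 to 0.41, adjusted p = 0.0866), and this passed the threshold under other settings, for example with an intensity trend (adjusted p = 0.00781). The second BACH2 probe set differed by -0.09 and 0.09, neither called.

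MME (203435_s_at) encodes CD10, the surface peptidase used to recognise germinal centre B cells and their lymphomas, and it moved opposite to BCL6. Vehicle arrays read 9.13, 9.14 and 9.13, and those of 1 μM ibrutinib 9.25, 9.39 and 9.37. Arrays of 10 μM ibrutinib read 10.57, 10.60 and 10.56, and those of PLS-123 10.82, 10.83 and 10.82. At this probe set the 4 groups do not overlap. They run from vehicle through the lower and the higher dose of ibrutinib to PLS-123. Between PLS-123 and 10 μM ibrutinib, the arrays did not overlap in 25.1% of all genes. MME rose 3.23-fold after PLS-123 (log2 difference 1.69 ± 0.07, SE, adjusted p = 2.88e-09) and 2.72-fold after 10 μM ibrutinib (1.44 ± 0.07, adjusted p = 1.5e-08). Over all genes, 66 lay at least as far above vehicle after PLS-123 (0.334%) and 99 after 10 μM ibrutinib (0.501%). The second MME probe set rose by 1.54 and 1.44. There the arrays of PLS-123 and 10 μM ibrutinib overlapped, with a difference of 0.09 (adjusted p = 0.621). At 1 μM ibrutinib MME differed by 0.21 (0.05 to 0.36, adjusted p = 0.916). MME and BACH2 were the only 2 of the 9 genes whose 1 μM ibrutinib arrays did not overlap vehicle, beside 10.0% of all genes, and an exact permutation test over 3 against 3 arrays cannot give a two-sided p below 0.1.

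MYBL1 (213906_at), a transcription factor of the MYB family abundant in germinal centre centroblasts, read 9.12, 9.20 and 9.19 on vehicle, 9.27, 8.83 and 8.92 after 1 μM ibrutinib, 8.05, 8.16 and 8.22 after 10 μM ibrutinib, and 8.67, 8.28 and 8.57 after PLS-123. Among the genes that fell, it is the one whose arrays were lower after 10 μM ibrutinib than after PLS-123, with no overlap. MYBL1 fell by 1.03 ± 0.12 after 10 μM ibrutinib (SE, adjusted p = 6.56e-05), to 49.1% of vehicle, and by 0.66 ± 0.12 after PLS-123 (adjusted p = 0.00189), to 63.1%. The methods' t-test did not call the fall after PLS-123 (adjusted p = 0.0533). The other MYBL1 probe sets did not share the order of the treatments. Probe set 231268_at fell by 0.61 after PLS-123 (adjusted p = 0.00549) and differed by -0.28 after 10 μM ibrutinib (adjusted p = 0.245), and the dim 237014_at fell by 0.38 (adjusted p = 0.041) and differed by -0.19.

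LMO2 (204249_s_at), a bridging factor and a standard protein marker of germinal centre lymphomas, was dim at both of its probe sets. The brighter one read 2.91, 2.92 and 3.08 on vehicle, 2.97, 3.23 and 3.37 after 1 μM ibrutinib, 2.83, 2.86 and 2.85 after 10 μM ibrutinib, and 2.87, 2.55 and 2.89 after PLS-123. Its difference from vehicle was -0.20 after PLS-123 (95% confidence interval -0.45 to 0.04) and -0.12 after 10 μM ibrutinib (-0.37 to 0.12), neither called. At this signal a change of LMO2 was hardly measurable, and the second probe set differed by -0.01 and 0.04.

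PAX5 (221969_at), the factor that commits cells to the B lineage, read 10.67, 10.73 and 10.67 with vehicle and 10.49, 10.68 and 10.71 after 1 μM ibrutinib. It read 10.52, 10.54 and 10.56 after 10 μM ibrutinib and 10.38, 10.21 and 10.33 after PLS-123. The PLS-123 arrays lie below all the others. PAX5 fell by 0.38 ± 0.08 after PLS-123 (SE, adjusted p = 0.00597), to 76.7% of vehicle, and differed by -0.15 after 10 μM ibrutinib (95% confidence interval -0.33 to 0.03, adjusted p = 0.34). With the ACTB measure as a covariate, the PLS-123 difference of PAX5 was -0.32 and no longer called (adjusted p = 0.122). The second PAX5 probe set differed by -0.39 and -0.34, neither called.

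EBF1 (227646_at), which acts with PAX5 in setting up and keeping the B-cell programme, read 8.77, 9.05 and 8.79 on vehicle, 8.70, 8.78 and 8.72 after 1 μM ibrutinib, 8.40, 8.39 and 8.48 after 10 μM ibrutinib, and 8.42, 8.34 and 8.29 after PLS-123. The groups of 10 μM ibrutinib and PLS-123 overlap each other and lie below the rest. EBF1 fell by 0.52 ± 0.09 after PLS-123 (SE, adjusted p = 0.00105) and by 0.45 ± 0.09 after 10 μM ibrutinib (adjusted p = 0.00441). Neither fall was called by the methods' t-test (adjusted p = 0.0578 and 0.0926) or with the median of the gene's probe sets (adjusted p = 0.0689 and 0.0924). Of its other 3 probe sets, only 229487_at after 10 μM ibrutinib passed the test (-0.41, adjusted p = 0.0248), and none did after PLS-123 (-0.27, -0.24 and -0.18).

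SPIB (205861_at), an ETS factor needed for antigen receptor signalling in germinal centre cells, read 9.09, 9.27 and 9.15 on vehicle, 8.92, 9.15 and 9.08 after 1 μM ibrutinib, 8.72, 8.85 and 8.76 after 10 μM ibrutinib, and 8.55, 8.52 and 8.52 after PLS-123. The vehicle and 1 μM ibrutinib arrays overlap, 10 μM ibrutinib lies below them, and PLS-123 lies below that. SPIB fell by 0.64 ± 0.08 after PLS-123 (SE, adjusted p = 1.32e-04), to 64.0% of vehicle, and by 0.40 ± 0.08 after 10 μM ibrutinib (adjusted p = 0.00734), to 75.9%. The methods' t-test did not call the latter (adjusted p = 0.0512). The second SPIB probe set fell by 0.32 after PLS-123 (adjusted p = 0.0364) and differed by -0.02 after 10 μM ibrutinib (adjusted p = 0.936).

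POU2AF1 (205267_at), the B-cell coactivator that joins octamer factors at immunoglobulin promoters and is needed for germinal centres to form, was the other riser. It read 11.59, 11.67 and 11.71 on vehicle, 11.64, 11.64 and 11.64 after 1 μM ibrutinib, 11.91, 11.93 and 11.96 after 10 μM ibrutinib, and 12.05, 11.92 and 12.10 after PLS-123. The last pair of groups overlap each other and lie above the first pair. POU2AF1 rose by 0.37 ± 0.08 after PLS-123 (SE, adjusted p = 0.0044) and by 0.28 ± 0.08 after 10 μM ibrutinib (adjusted p = 0.0332). With the ACTB covariate the differences were 0.31 and 0.26, and neither was called (adjusted p = 0.0987 and 0.0631). The call after 10 μM ibrutinib was also lost whenever one of the vehicle or 10 μM ibrutinib arrays was left out. The difference was then 0.25 to 0.30 (adjusted p = 0.0593 to 0.121). The second POU2AF1 probe set rose by 0.80 and 0.83.

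**Figure D2:**
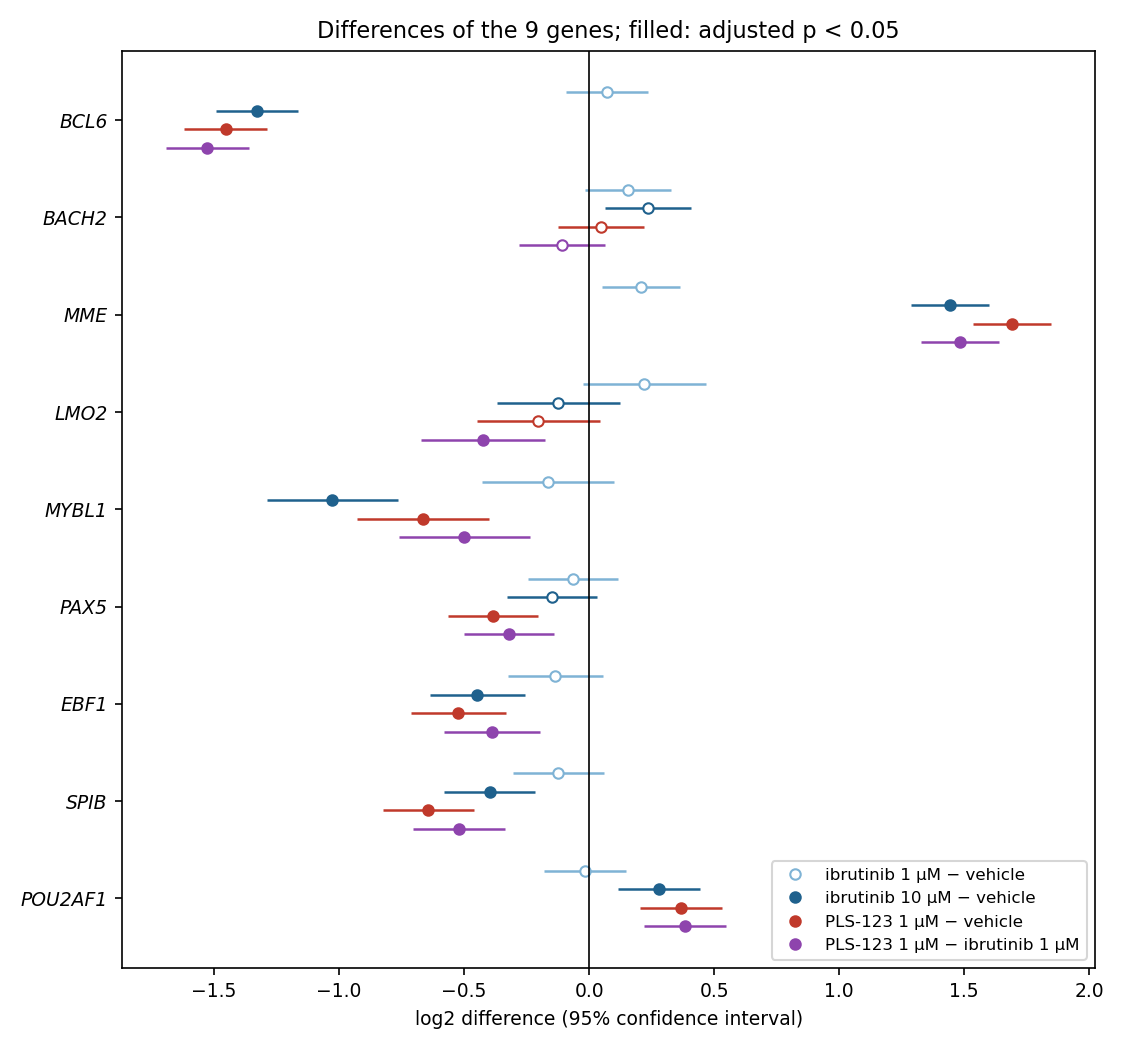
Difference in log2 intensity (x axis, with 95% confidence intervals) at the brightest probe set of each of the 9 genes (y axis), for each treatment against vehicle and for PLS-123 against ibrutinib at 1 μM; filled points have an adjusted p under 0.05. The points of 1 μM ibrutinib are all open, between -0.16 and 0.22, and the points of PLS-123 against vehicle run from -1.45 for BCL6 to 1.69 for MME.

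At the matched dose of 1 μM, PLS-123 and ibrutinib differed in 8 of the 9 genes, or 7 without the dim LMO2, with BCL6, LMO2, MYBL1, PAX5, EBF1 and SPIB lower and MME and POU2AF1 higher after PLS-123. LMO2 stood at 2.77 against 3.19, and its second probe set differed by -0.0027 (adjusted p = 0.993). Over all genes, 10.1% were lower and 5.78% higher (15.9% in either direction). Among the 27307 probe sets that were not dim, tested alone, 5627 were lower and 2727 higher. BCL6 differed by -1.53 (95% confidence interval -1.69 to -1.36, adjusted p = 1.66e-08), and MME was 2.80-fold higher with a log2 difference of 1.48 (1.33 to 1.64, adjusted p = 1.25e-08). SPIB differed by -0.52 (adjusted p = 9.65e-04), MYBL1 by -0.50 (adjusted p = 0.0152), the dim LMO2 by -0.42 (adjusted p = 0.0263), EBF1 by -0.39 (adjusted p = 0.0104), POU2AF1 by 0.38 (adjusted p = 0.0042) and PAX5 by -0.32 (adjusted p = 0.0219). BACH2 differed by -0.11 (-0.28 to 0.06, adjusted p = 0.465), so a difference of more than 0.28 either way lies outside its interval. Without PLS-123 array B the count was 5, with LMO2, MYBL1 and PAX5 no longer called (adjusted p = 0.112, 0.0672 and 0.0896). Without 1 μM ibrutinib array B or C it was 6, with LMO2 (0.0883 and 0.121) and PAX5 (0.0839 and 0.0971) no longer called, and without PLS-123 array C PAX5 was lost (adjusted p = 0.0541). With the ACTB covariate 4 genes remained, BCL6, MME, MYBL1 and SPIB.

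Between the doses of ibrutinib, 5 of the 9 genes changed, and 9.72% of all genes did. At 10 μM, BCL6 differed from its level at 1 μM by -1.40 (adjusted p = 4.63e-08), MYBL1 differed by -0.86 (adjusted p = 3.79e-04) and EBF1 by -0.31 (adjusted p = 0.0487), while MME differed by 1.24 (adjusted p = 8.52e-08) and POU2AF1 by 0.29 (adjusted p = 0.0296). SPIB at -0.27 (adjusted p = 0.0707) and LMO2 at -0.34 (adjusted p = 0.0989) were not called. EBF1 was no longer called when any 1 array other than vehicle array B was left out (adjusted p = 0.0545 to 0.147), and POU2AF1 when any array of either ibrutinib dose was (adjusted p = 0.0548 to 0.103). BCL6, MME and MYBL1 stayed called with any 1 array left out, although the methods' t-test did not call MYBL1 (adjusted p = 0.0869), nor did the median of its probe sets (-0.08, adjusted p = 0.842). Without 1 μM ibrutinib array A, LMO2 and SPIB were called in place of EBF1 and POU2AF1 (adjusted p = 0.0287 and 0.0283).

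The values of 1 μM PLS-123 and 10 μM ibrutinib stand side by side at unlike doses. None of the 9 genes was called between these groups, where 0.212% of all genes were, and 5 of the 9 had an unadjusted p under 0.05. By the methods' t-test the count was also 0. PLS-123 minus ibrutinib was -0.13 in BCL6 (95% confidence interval -0.29 to 0.04), 0.25 in MME (0.09 to 0.40) and -0.25 in SPIB (-0.43 to -0.06). It was 0.36 in MYBL1 (0.10 to 0.63), against -0.33 at that gene's second probe set, and -0.23 in PAX5 (-0.41 to -0.05). MME was called with an intensity trend, with 16 added to the intensities and without dim probe sets, and PAX5 with the trend. More probe sets of the whole array were called under these settings too, as given below. In the order of the levels of each gene, vehicle and 1 μM ibrutinib therefore did not differ beyond the test, nor did 10 μM ibrutinib and 1 μM PLS-123.

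Counted over all 22 probe sets of the 9 genes, PLS-123 gave 10 falls and 4 rises, where 10.4% of the 54613 probe sets fell and 6.36% rose. Ibrutinib at 10 μM gave 7 falls and 4 rises, where 4.62% fell and 5.39% rose. Every called probe set of a gene moved the same way as that gene's other called probe sets in both comparisons. BCL6, MME and POU2AF1 were called at all of their probe sets in both groups, whereas MYBL1, PAX5, EBF1 and SPIB each had a probe set that was not called in at least one of them.

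**Figure D3:**
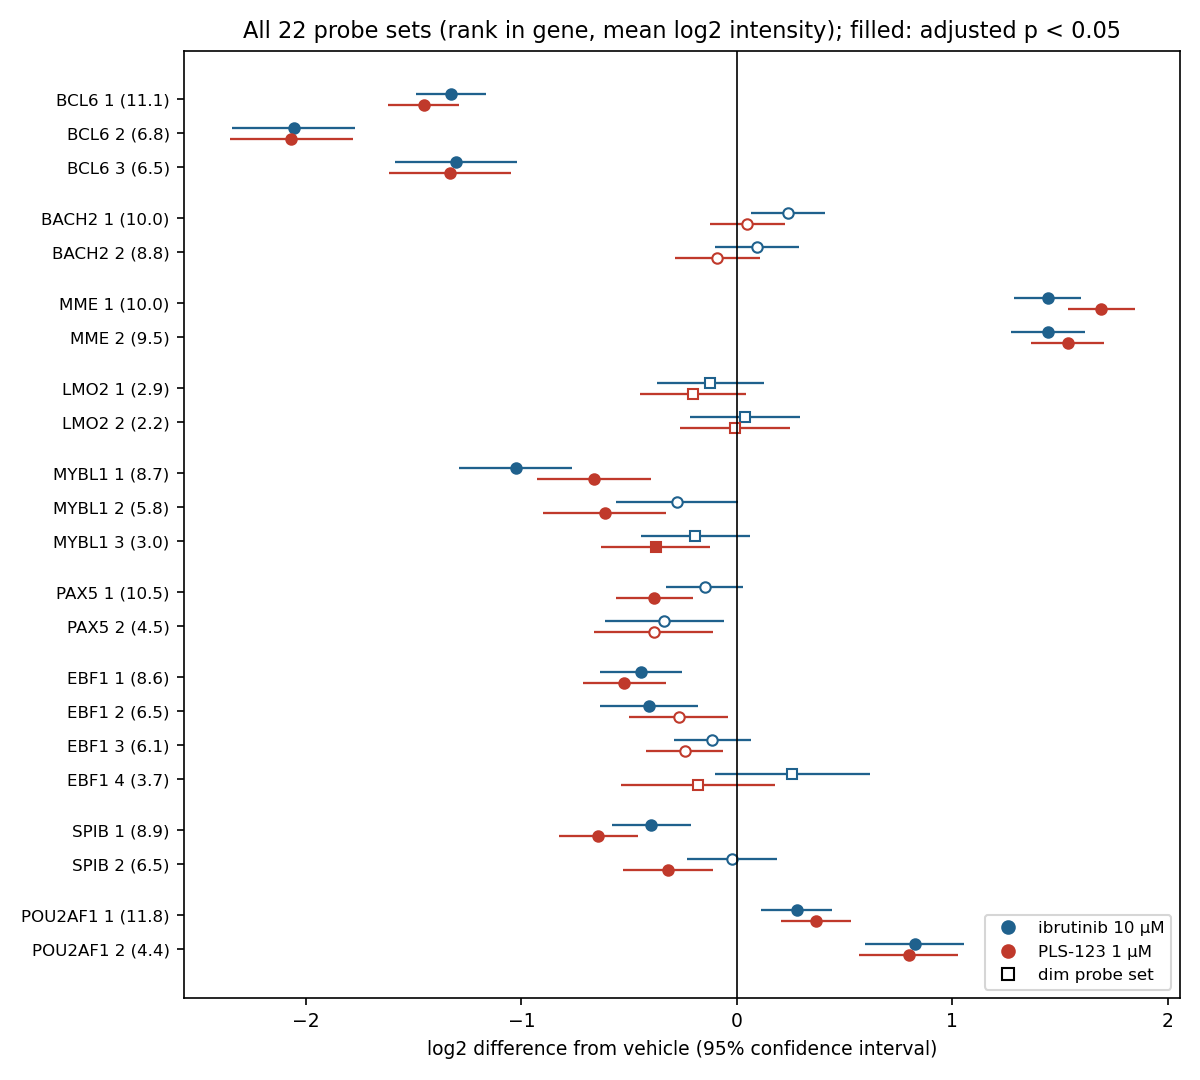
Difference in log2 intensity from vehicle (x axis, with 95% confidence intervals) at each of the 22 probe sets (y axis, numbered by brightness within the gene, mean log2 intensity in brackets) for 10 μM ibrutinib and PLS-123; filled symbols have an adjusted p under 0.05, squares are dim. All 3 BCL6 probe sets lie at or below -1.30, and all 4 points of MME lie at or above 1.44.

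Other transcription factors of the B-cell network were called in both directions. Of the 15 measured of 17 partner factors, PLS-123 gave 6 falls and 5 rises, where 12.8% of all genes fell and 7.54% rose. Ibrutinib at 10 μM gave 5 of each, where 5.82% fell and 6.71% rose, with median differences of -0.18 and -0.08. POU2F2, the octamer factor OCT2 that binds POU2AF1, fell by 1.54 ± 0.09 after PLS-123 (SE, adjusted p = 7.34e-08), and its difference after 10 μM ibrutinib was -1.18 (adjusted p = 1.11e-06). IRF8, which works with PU.1 and Spi-B and is known to promote BCL6 expression, fell in both groups (-1.18 and -0.96, adjusted p = 1.91e-07 and 1.6e-06). ID2, an inhibitor of E proteins that opposes the B-cell factors, rose by 1.49 and 1.45 (adjusted p = 1.55e-06 and 2.24e-06).

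Of 8 measured corepressors through which BCL6 acts, PLS-123 gave 2 falls and 1 rise, where 20.4% of all genes were called, and 10 μM ibrutinib gave 2 rises, where 12.5% were, with medians of -0.21 and -0.06. MTA3 fell by 0.49 after PLS-123 (adjusted p = 0.00228) and differed by -0.18 after 10 μM ibrutinib (adjusted p = 0.279). TBL1X fell by 0.29 after PLS-123, and TBL1XR1 rose by 0.29 and by 0.25. The other rise after 10 μM ibrutinib was BCOR, named here outside the rule, after its values were seen. BCOR rose by 0.72 there (adjusted p = 6.89e-04) and differed by 0.26 after PLS-123 (adjusted p = 0.139). Its values under the alternatives are not reported here. With the ACTB covariate none of MTA3, TBL1X and TBL1XR1 was called after PLS-123. The methods' t-test did not call the fall of MTA3 (adjusted p = 0.051). With the median of its probe sets TBL1XR1 differed by -0.02 and -0.11, neither called, and its rise after 10 μM ibrutinib was also lost when any 1 vehicle or 10 μM ibrutinib array was left out (adjusted p = 0.0746 to 0.12). TBL1X was lost without vehicle array A or PLS-123 array C (adjusted p = 0.0535 and 0.0602).

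Of 13 measured genes that BCL6 is known to repress, 6 of them dim, 2 rose, 1 fell and 10 were not called after PLS-123, where 7.54% of all genes rose and 12.8% fell. After 10 μM ibrutinib 2 rose and 11 were not called, where 6.71% rose and 5.82% fell. The median difference was -0.02 after PLS-123 and -0.005 after 10 μM ibrutinib, close to that of all genes. CD69, an early activation antigen, rose by 2.67 in both groups (adjusted p = 2.29e-07 and 2.6e-07), and ID2 rose as given above. BCL2, the anti-apoptotic gene, fell by 0.43 after PLS-123 (adjusted p = 0.00575) and differed by -0.16 after 10 μM ibrutinib. That fall was not called by the methods' t-test (adjusted p = 0.0698), with the ACTB covariate (0.134) or with the median of its probe sets, which differed by -0.03 (0.88). PRDM1, the plasma cell regulator named here outside the rule, after its values were seen, and the best known target of BCL6, differed by -0.02 and 0.04 and was not called.

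Of 13 measured genes that PAX5 and EBF1 activate, PLS-123 gave 6 falls and 3 rises, where 12.8% of all genes fell and 7.54% rose. Ibrutinib at 10 μM gave 5 falls and 2 rises, where 5.82% fell and 6.71% rose, with medians of -0.20 and -0.18. VPREB3, a surrogate light chain assembly protein, fell in both groups (-1.60 and -1.79, adjusted p = 7.05e-08 and 2.41e-08). BLNK, the adaptor that couples the B-cell receptor to BTK, fell likewise (-0.88 and -0.66, adjusted p = 2.96e-06 and 5.26e-05), as did CD72, an inhibitory coreceptor (-1.04 and -0.87, adjusted p = 8.83e-06 and 5.43e-05). The summed log2 intensity of the 4 measured B-cell markers, which share genes with this list, lay between 44.10 and 44.19 on vehicle, 43.72 and 44.04 after 1 μM ibrutinib, 41.75 and 41.84 after 10 μM ibrutinib, and 41.33 and 41.55 after PLS-123. Most of that drop was in CD22, which is not in the list and stood at a mean of 10.11 on vehicle, 8.24 after 10 μM ibrutinib and 7.97 after PLS-123. MS4A1 stood at 12.38, 11.84 and 11.76 and CD79A at 10.48, 10.26 and 10.19, whereas CD79B had higher means after both treatments, at 11.18, 11.46 and 11.49. After 10 μM ibrutinib neither CD79A (adjusted p = 0.152) nor CD79B (adjusted p = 0.0515) was called.

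Genes that PAX5 represses did not share a direction, with 1 fall, 2 rises and 5 not called of 8 measured in both groups, beside the shares of all genes just given, and medians of 0.11 and -0.01. The fall was CD28, a costimulatory receptor of T cells and plasma cells, with differences of -3.30 and -3.19 (adjusted p = 2.09e-10 and 3.21e-10), opposite to what the list's name would give for a fall of PAX5. Over the 8 T and NK cell markers the summed log2 intensity ran from 25.47 to 26.04 on vehicle, 24.50 to 25.39 after 1 μM ibrutinib, 25.07 to 25.59 after 10 μM ibrutinib and 25.78 to 27.56 after PLS-123, and its part in the CD28 result was not tested. NOTCH1, a receptor for fate choice, rose by 0.58 and 0.74 (adjusted p = 8.35e-04 and 1.33e-04). XBP1, the secretory regulator, rose by 0.37 and 0.50 (adjusted p = 0.0131 and 0.00245), and neither rise was called by the methods' t-test (0.0754 and 0.0536) or with the median of its probe sets (0.665 and 0.0569). The rise after PLS-123 was also lost with the ACTB covariate (adjusted p = 0.236) and without vehicle array A (adjusted p = 0.0626).

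Surface and effector genes of the germinal centre fell or were not called. Of 17 measured, each of the 2 treatments gave 7 falls and no rise, where 12.8% of all genes fell after PLS-123 and 5.82% after 10 μM ibrutinib, with medians of -0.11 for PLS-123 and -0.16 for 10 μM ibrutinib. IRAG2, an endoplasmic reticulum protein abundant in germinal centre cells, fell in both groups (-2.05 and -1.86, adjusted p = 2.52e-09 and 7.11e-09). P2RY8, a receptor that confines cells to the germinal centre, fell too (-1.49 and -1.70, adjusted p = 4.58e-08 and 1.47e-08), and so did CD38, an ectoenzyme (-0.78 and -0.49, adjusted p = 3.26e-05 and 0.00185).

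Of the 7 plasma cell genes, 2 fell, 1 rose and 4 were not called in both groups, with medians of -0.02 and -0.007. Over all genes, 12.8% fell and 7.54% rose after PLS-123, and 5.82% fell and 6.71% rose after 10 μM ibrutinib. TNFRSF17, the survival receptor BCMA, fell in both groups (-2.60 and -2.10, adjusted p = 6.59e-10 and 5.91e-09). IRF4, a factor needed for plasma cells, fell as well (-1.15 and -0.86, adjusted p = 3.76e-06 and 6.56e-05). XBP1 was the riser, and the settings that lost its call are given above. No gene of these 7 lists was called after 1 μM ibrutinib. ID2, IRF4, JCHAIN, PRDM1 and XBP1 stand in more than one list, so the counts are not independent.

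**Figure D4:**
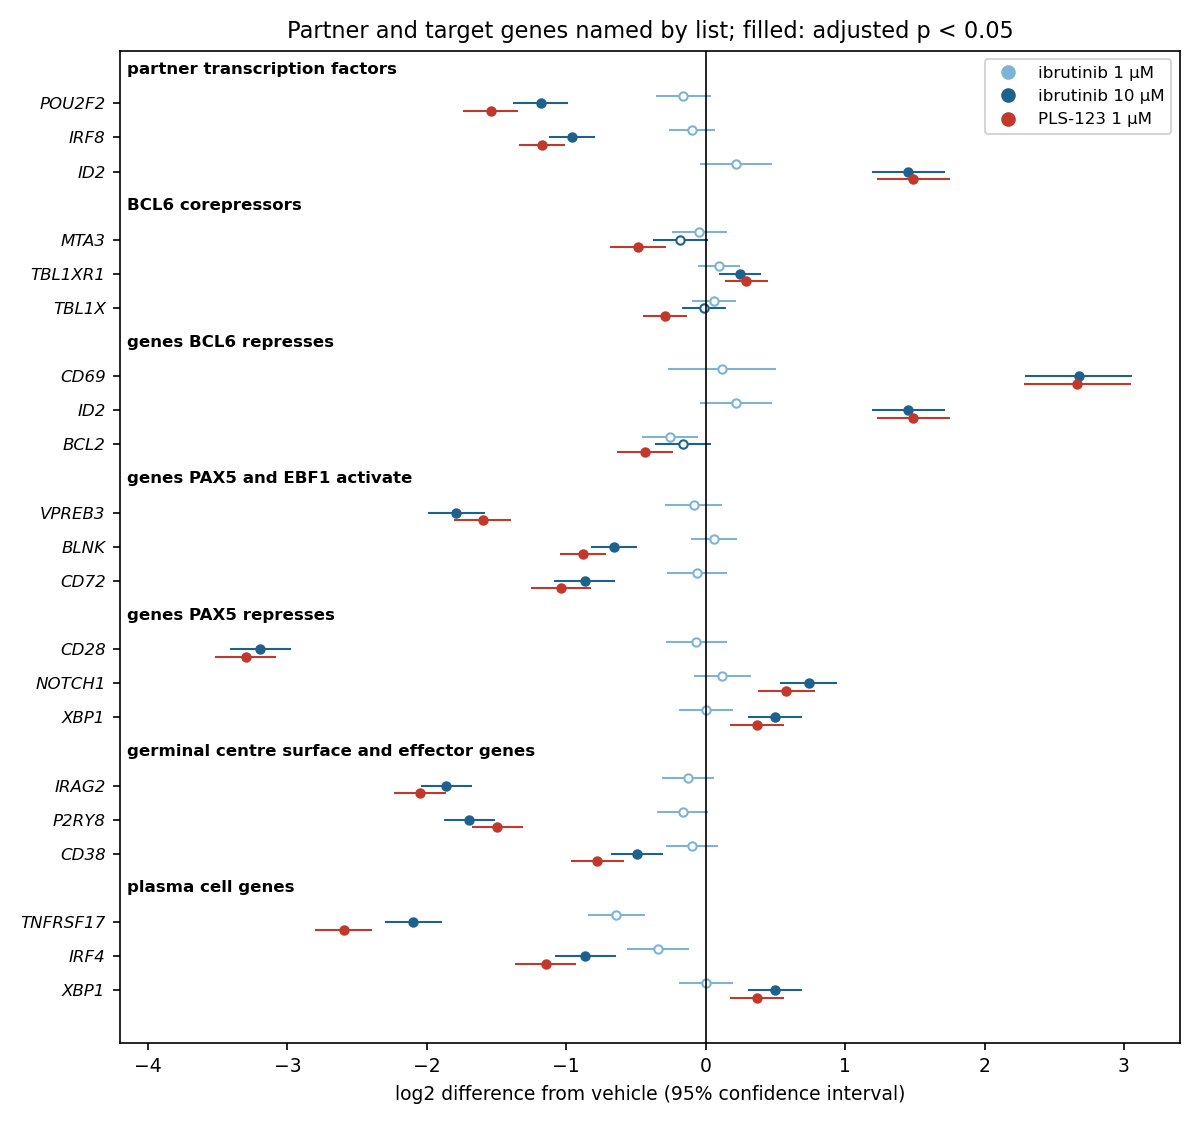
Difference in log2 intensity from vehicle (x axis, with 95% confidence intervals) of up to 3 genes from each list of partner and target genes (y axis), chosen for the smallest adjusted p after PLS-123, so their distance from 0 is a description; filled points have an adjusted p under 0.05. Points of 1 μM ibrutinib are all open, and ID2 and XBP1 appear under both lists that hold them.

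The genes whose intensity followed each member most closely over the 12 arrays were found among 12032 other genes that were not dim, by Pearson's r, as a description only, since arrays of one group share a treatment. For BCL6 these were MBD2 (r = 0.996), CD28 (r = 0.995) and LINC01857 (r = 0.994), and for MME they were FAM43A (r = 0.996), SLC2A5 (r = 0.995) and CD27 (r = 0.995). A high r was common, with 792 genes over 0.9 for BCL6, 647 for MME and 1118 for SPIB, whose closest was TACC1 (r = 0.992). MYBL1 was closest to EIF3K (r = 0.984), PAX5 to STAT6 (r = 0.978), EBF1 to SP100 (r = 0.982) and POU2AF1 to RASSF6 (r = 0.982). BACH2 had 3 genes over 0.9, with MOGS at 0.909, and LMO2 had none, with RFESD at 0.881.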

How the data were processed

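The 12 arrays of the experiment were analysed, 3 per group. The authors deposited linear intensity values per probe set of the U133 Plus 2.0 array, normalized with RMA per the submitters' processing notes, whose version is not given in the sources used here. For each intensity the log2 was taken with nothing added. Of 54675 probe sets, 62 controls were set aside. The array annotation gave 41091 probe sets a single symbol, 1801 several and 11721 none. No probe set of a member carried several symbols.

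limma 3.58.1 (R 4.3.3) was fitted with 1 mean per group (8 residual degrees of freedom) and eBayes, after a check on simulated data. The number of arrays limits the precision. Named genes were the 9 members, up to 3 called genes per list with the smallest adjusted p with PLS-123 against vehicle, and the 3 genes of highest r per member, of which the text gives 3 or 1. The members and lists were chosen with earlier results of these data known. Some genes of the lists are not reported here. Promoters came from RefSeq. Same-letter arrays of different groups had residual correlations between -0.25 and 0.22, so letters were not treated as pairs. The alternatives were the methods' t-test, 2 groups alone, an intensity trend, a replicate block, quantile normalization, centring on 100 normalization controls, 16 added to intensities, an ACTB covariate, no dim probe sets, testing 1 probe set per gene alone, a gene's probe sets by their median, fold thresholds of 1.5 and leaving out each array.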

Additional observations from a re-analysis of the deposited data

How the results depend on the processing

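Of 54 differences between groups in the 9 genes, 26 were called, and 9 of these passed under every alternative. The number of genes called with PLS-123 against vehicle, 7, stayed 7 with any 1 array left out and became 4 with a fold of 1.5 added to the adjusted p, and 4 at the study's threshold of a fold of 1.5 with an unadjusted p, by limma or by the methods' t-test. It was 5 with the methods' t-test and 5 with the ACTB covariate. Over all probe sets, that covariate took the called falls from 5664 to 1928 and the called rises from 3476 to 1552. With 10 μM ibrutinib against vehicle the 6 genes became 3 under each of these 3 thresholds and 3 with the median of a gene's probe sets. They became 4 with the methods' t-test, 5 with the ACTB covariate and 5 to 6 with 1 array left out. BACH2 was called in addition with an intensity trend, quantile normalization, 16 added, no dim probe sets or 1 probe set per gene (adjusted p = 0.00781 to 0.0439). For PLS-123 against 1 μM ibrutinib the 8 genes became 2 under each threshold, 4 with the methods' t-test, 5 with the 2 groups alone, 4 with the ACTB covariate and 5 to 8 with 1 array left out. Between the ibrutinib doses the 5 genes became 3 under each threshold, 3 with the 2 groups alone and 4 with the methods' t-test. They became 4 with the ACTB covariate and 3 to 5 with 1 array left out. SPIB was called in addition under the settings that added BACH2 above (adjusted p = 0.0111 to 0.0451). For PLS-123 against 10 μM ibrutinib, 0 genes became 2 with an intensity trend, 1 with 16 added and 1 without dim probe sets. The whole array moved likewise, from 72 called falls and 28 called rises in the main model. These became 1142 and 273 with the trend, 1224 and 197 with 16 added, and 832 and 150 of 27307 without dim probe sets. For 1 μM ibrutinib against vehicle the count of the 9 genes was 0 under every alternative.

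With the replicate letter as a replicate block the 6 counts were 7, 5, 0, 8, 4 and 0 in the order PLS-123, 10 μM and 1 μM ibrutinib against vehicle, PLS-123 against 1 μM ibrutinib, 10 μM against 1 μM ibrutinib, and PLS-123 against 10 μM ibrutinib. The block ended the call of POU2AF1 with 10 μM ibrutinib against vehicle (adjusted p = 0.051) and of EBF1 between the ibrutinib doses (adjusted p = 0.0719), and no other call of the 9 genes changed under it.

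The direction turned only in differences that were not called. With the median of a gene's probe sets, the difference became -0.0209 for BACH2 with PLS-123 against vehicle, -0.12 for BCL6, 0.0812 for EBF1 and 0.14 for POU2AF1 with 1 μM ibrutinib against vehicle, and -0.33 for MYBL1 and 0.0045 for EBF1 with PLS-123 against 10 μM ibrutinib. Quantile normalization turned EBF1 in the last comparison to 0.0029. With 1 array left out, BACH2 ranged from -0.0069 to 0.10 with PLS-123 against vehicle, PAX5 from -0.10 to 0.0061 and POU2AF1 from -0.0478 to 0.0086 with 1 μM ibrutinib against vehicle, and LMO2 from -0.14 to 0.0314 with PLS-123 against 10 μM ibrutinib. The cause was not tested.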
